A study of Mus musculus with 2 samples.

Results

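The respiratory chain genes measured here were the 109 of 28692 listed genes whose symbols start with mt-, Nduf, Uqcr, Atp5, Sdh, or Cox4 to Cox8. Of these, 13 are encoded in the mitochondrial genome and 96 in the nucleus. Grouped mainly by symbol, the nuclear members comprised 38 genes of complex I, 4 of complex II and 8 of complex III. They also comprised 18 of complex IV, 15 of complex V (the ATP synthase) and 13 assembly factors. The mitochondrial members comprised 7 genes of complex I, 1 of complex III, 3 of complex IV and 2 of complex V. They were followed in single cells from the peritoneal cavity of germ-free C57BL/6 mice, that is, mice raised without microbes. One library came from WT mice and the other from Xbp1dIEC mice. The latter lack Xbp1, which encodes a transcription factor that answers to misfolded protein in the endoplasmic reticulum, in the epithelium of the gut, so the cells sequenced were not themselves the target of the deletion. Each library pooled cells of 4 male mice aged 10 weeks, and 8700 cells of each pool were loaded into droplets.

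The respiratory chain passes electrons from NADH and succinate through complexes I to IV to oxygen, and the ATP synthase uses the resulting proton gradient. Complexes I, III, IV and V mix subunits made from mitochondrial DNA with subunits made from nuclear genes and imported, while complex II is nuclear only. Resident peritoneal macrophages, B-1 cells and other lymphocytes differ in how much they rely on this pathway.

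With 1 library per genotype, no difference between genotypes has a replicate check and none was tested. All intervals are 95% intervals for counting error only, and differences between pools of mice, dissection or library preparation cannot be told apart from genotype. The files held 6204 WT and 6246 Xbp1dIEC barcodes with 56229330 and 49703442 UMIs (unique molecular identifiers, 1 per captured transcript). The median was 8324 UMIs per barcode in WT and 7280 in Xbp1dIEC. The libraries had 58 barcode sequences in common. No barcode was removed for its mitochondrial share, since that share was itself measured.

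Cells were sorted into populations by UMIs of marker genes, none of which is a respiratory chain gene. This gave 2672 WT and 2638 Xbp1dIEC large macrophages, the resident cells marked by Gata6 and Timd4. It gave 518 and 646 Folr2/Retnla cells, 76 and 84 Cd209a cells, 327 and 601 B-1 cells, 919 and 781 B-2 cells, 287 and 224 T cells, and 20 and 29 NK cells. Most markers that were not used for gating followed the names. Alox15, a lipoxygenase of resident macrophages, stood at 1871 and 1935 CPM (counts scaled to a common total) in WT and Xbp1dIEC large macrophages and at 29.1 and 22.4 CPM in B-1 cells. Gzma, a granule protease, stood at 1866 and 2972 CPM in NK cells and at 5.97 and 2.21 CPM in T cells. Pax5 was highest in both B cell gates. Lck and Thy1 were high in T cells and in NK cells, with Lck at 420 and 419 CPM in T cells and at 589 and 353 in NK cells. Cd2, listed as a T cell marker, did not separate them, at 358 and 362 CPM in T cells and 486 and 527 in B-1 cells. Klrd1, listed as an NK cell marker, was highest in NK cells, at 904 and 813 CPM. It also stood at 241 and 156 CPM in Cd209a cells, above the 177 and 142 of T cells. The Folr2/Retnla name fits only in part. Of these cells, 374 WT and 393 Xbp1dIEC also passed the macrophage gate, they held 1006 and 1164 CPM of Alox15, and Retnla made up most of the list at 10485 and 12138 CPM. Of the B-2 cells, 471 WT and 342 Xbp1dIEC carried a UMI of Fcer2a, the low-affinity IgE receptor of conventional B cells. Msln of mesothelium, Epx and Prg2 of eosinophils and S100a9 of neutrophils were at 0 in macrophages, B cells and T cells of both libraries, while S100a8, also a neutrophil transcript, stood at 16.6 and 14.1 CPM in large macrophages. Lyz2, a macrophage transcript, stood at 48874 and 54830 CPM in large macrophages and was also present in B and T cells. There it stood at 1159 and 962 CPM in B-1 cells, 1315 and 920 in B-2 cells and 1766 and 897 in T cells, higher in WT in each. Whether transcripts of other cells reached those barcodes, and their part in the ratios of B and T cells, was not tested.

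A pair of mitochondrial genes overlaps in sequence, which limits how reads within the shared bases can be assigned and is why they are shown here. In GENCODE M21 on GRCm38, mt-Atp8 spans chrM:7766-7969 and mt-Atp6 spans chrM:7927-8607 on the same strand. Both encode ATP synthase subunits. The capitals mark the 43 shared bases, first at the end of mt-Atp8 and then at the beginning of mt-Atp6.
mt-Atp8 end: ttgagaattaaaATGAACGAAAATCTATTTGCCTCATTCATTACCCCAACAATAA
mt-Atp6 start: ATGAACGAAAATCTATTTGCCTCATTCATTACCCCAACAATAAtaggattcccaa
In large macrophages mt-Atp8 stood at 34.0 CPM in WT and 42.4 in Xbp1dIEC, against 7244 and 8220 for mt-Atp6. The complex I genes mt-Nd4l and mt-Nd4 overlap by 7 bases, shown in capitals at the end of mt-Nd4l.
mt-Nd4l end: caacctactacaATGCTAA
They stood at 62.1 and 75.1 CPM for mt-Nd4l and at 2224 and 2630 CPM for mt-Nd4 in the same cells. A read within the shared bases cannot be given to 1 gene of a pair by its sequence alone. How such reads were counted is not stated, so the levels of mt-Atp8 and mt-Nd4l are uncertain. The part of the shared bases in the difference of level within each pair was not tested.

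The promoters of nuclear members were searched for letters bound by 3 factors known to act on respiratory genes. RefSeq windows (GRCm38.p6, 250 bases before to 50 after a start site) were found for 80 of 96 nuclear members. The NRF1 letters, GCGC then any base then TGCGC, on either strand, were in windows of 21 members (26.2%), against 5.19% of 27025 symbols. On either strand, the YY1 letters AAGATGGCG were in 8 members (10%), against 1.64%. The ETS letters CCGGAAGT, which the GABP factor recognises, were in 5 (6.25%), against 4.31%. The stretches below lie upstream of the start in RefSeq and outside the gene in GENCODE M21. They show a pair of complex II subunits and the complex I subunit Ndufa11 with the NRF1 letters in capitals. Uqcrh, a complex III subunit that differed from most members in large macrophages, is shown with the ETS letters in capitals. Ndufs3, Uqcr11, Atp5h and Cox8a also carry the ETS letters, and ratios by these letters were not compared. All 4 stretches are written 5′ to 3′ along the gene.
Sdha: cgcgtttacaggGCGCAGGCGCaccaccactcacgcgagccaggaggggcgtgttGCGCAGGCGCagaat
Sdhd: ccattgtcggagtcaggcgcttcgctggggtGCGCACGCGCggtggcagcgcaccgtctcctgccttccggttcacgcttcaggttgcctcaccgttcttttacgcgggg
Ndufa11: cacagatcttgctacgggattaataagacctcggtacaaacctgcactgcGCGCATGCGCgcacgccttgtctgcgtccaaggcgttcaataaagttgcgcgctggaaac
Uqcrh: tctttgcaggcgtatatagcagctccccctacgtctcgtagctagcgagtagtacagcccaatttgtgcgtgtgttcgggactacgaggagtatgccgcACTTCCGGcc
They stand at chr13:74350281-74350350, chr9:50603850-50603959, chr17:56717652-56717761 and chr4:116075072-116075180, with only Ndufa11 on the plus strand. Sdha carries the NRF1 letters a further time in the 10 bases before its RefSeq start, which lie inside the GENCODE gene and are not printed. In large macrophages the median log2 ratio of Xbp1dIEC over WT was -0.22 for the 20 measured members with NRF1 letters and -0.19 for the 53 with a window that lacked them. In B-1 cells these medians were -0.06 for members with the letters and -0.08 for those without. A match describes the letters only.

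Across populations, the mitochondrial and nuclear genes of the chain ranked differently. The mt- genes took the largest share of UMIs in B cells and the smallest in Cd209a cells, while the nuclear members took the largest share in the macrophage populations and NK cells and the smallest in B cells. The mt- share in WT was 3.90% in B-1 cells, 3.62% in B-2 cells, 3.12% in large macrophages, 2.95% in T cells, 2.48% in Folr2/Retnla cells, 2.22% in NK cells and 1.60% in Cd209a cells. In Xbp1dIEC it was 4.52%, 4.10%, 3.65%, 3.0%, 2.88%, 2.37% and 1.65% in the same order. The order of the 7 populations was thus the same in both libraries, and the pooled counting intervals of neighbours did not overlap.

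The nuclear share in WT was 2.69% in Folr2/Retnla cells, 2.60% in large macrophages, 2.58% in NK cells, 2.25% in Cd209a cells, 1.86% in T cells, 1.83% in B-1 cells and 1.78% in B-2 cells. In Xbp1dIEC it was 2.52%, 2.36%, 2.41%, 2.34%, 1.84%, 1.76% and 1.71%. The interval of the few NK cells, 2.46% to 2.70% in WT, covered both macrophage values. In Xbp1dIEC it was 2.32% to 2.51%, which covered large macrophages but not Folr2/Retnla cells. T cells and both B cell gates were lowest in both libraries, and the WT intervals of T cells and B-1 cells overlapped. In WT, B-1 cells carried 2.13 mt- UMIs for each nuclear one, large macrophages 1.20, and Cd209a cells 0.710. Ribosomal protein genes also differed between populations, at 25.7% of WT UMIs in large macrophages, 41.0% in B-1 cells and 44.1% in T cells. Their part in the order of the nuclear shares was not tested.

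**Figure D1:**
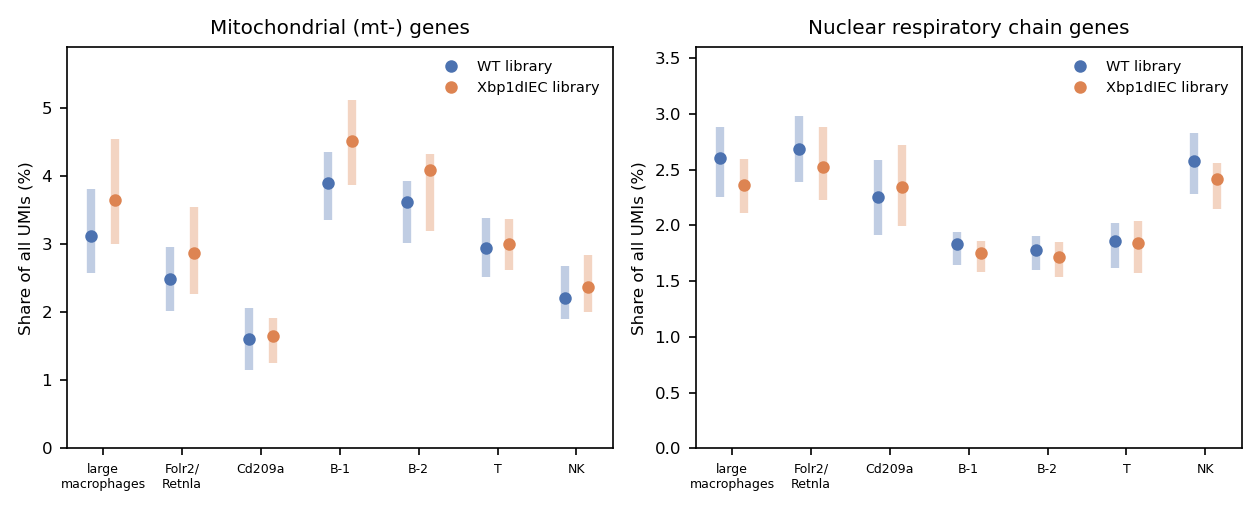
Share of all UMIs (%) taken by mt- genes (left) and nuclear respiratory chain genes (right) in 7 cell populations of the WT (blue) and Xbp1dIEC (orange) libraries. Points are pooled shares and bars the interquartile range of the cells; the mt- points of Xbp1dIEC lie above WT and the nuclear ones below it, except the nuclear point of Cd209a cells.

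Between the libraries, mitochondrial and nuclear genes went opposite ways in large macrophages, Folr2/Retnla cells, B-1 cells and B-2 cells: mt- shares were higher and nuclear shares lower in Xbp1dIEC. In large macrophages the mt- share was 3.12% in WT and 3.65% in Xbp1dIEC, a log2 ratio of 0.23 (0.22 to 0.23). The nuclear share was 2.60% and 2.36%, a log2 ratio of -0.14 (-0.14 to -0.13). Cells of the libraries overlapped widely: the interquartile range ran from 2.58% to 3.82% mt- in WT and from 3.003% to 4.54% in Xbp1dIEC, and 72.1% of Xbp1dIEC cells lay above the WT median. For the nuclear share, 26.6% of Xbp1dIEC cells lay above the WT median. Cells with 5% or more mt- UMIs were 7.82% of WT and 18.3% of Xbp1dIEC large macrophages.

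The mt- log2 ratio was 0.21 (0.20 to 0.22) in Folr2/Retnla cells, 0.21 (0.20 to 0.22) in B-1 cells and 0.18 (0.17 to 0.19) in B-2 cells. The nuclear log2 ratio was -0.09 (-0.10 to -0.08), -0.06 (-0.08 to -0.05) and -0.05 (-0.06 to -0.04) in these populations. With ribosomal and immunoglobulin UMIs left out of the total, the nuclear ratio of B-2 cells was close to 0, at -0.0031. T cells were near 0 on both sides, with 0.02 (0.0013 to 0.05) for mt- genes and -0.01 (-0.04 to 0.01) for nuclear genes. In the 20 and 29 NK cells the ratios were 0.10 (0.0045 to 0.19) and -0.09 (-0.18 to -0.0040), and the mt- ratio was -0.02 under stricter gates. Cd209a cells had a mt- ratio of 0.05 (0.0053 to 0.09), which was -0.01 when each cell had the same weight, and a nuclear ratio of 0.05 (0.02 to 0.09), which was above 0. The number of mt- UMIs per nuclear one went from 1.20 in WT to 1.54 in Xbp1dIEC in large macrophages and from 2.13 to 2.57 in B-1 cells, and was 0.710 and 0.706 in Cd209a cells.

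Depth per cell moved with the mt- result in large macrophages. The median large macrophage had 9535 UMIs in WT and 7675 in Xbp1dIEC. Across these cells the mt- share was lower where the total was higher. The Spearman rho was -0.45 over 2672 WT cells and -0.54 over 2638 Xbp1dIEC cells, where both measures share the total. Among cells with 5000 to 10000 UMIs the mt- log2 ratio of large macrophages was 0.09, and that of Folr2/Retnla cells 0.13, against 0.23 and 0.21 over all cells. Within bins of depth, large macrophages had mt- ratios of 0.26 in cells under 4000 UMIs, 0.14 at 4000 to 6000 and 0.06 at 6000 to 8000. The mt- ratios were 0.10 at 8000 to 10000, 0.10 at 10000 to 14000 and 0.20 at 14000 or more, always above 0. The nuclear ratio of large macrophages held between -0.15 and -0.10 in each of the 6 bins. B-1 cells, whose median depth was 8053 UMIs in WT and 8569 in Xbp1dIEC, had mt- ratios of 0.13 to 0.25 in the 6 bins. In B-2 cells the mt- ratio was 0.03 in cells under 4000 UMIs and 0.12 to 0.22 in deeper ones. The rho of mt- share and total had the opposite sign in B-2 cells, at 0.20 in WT and 0.40 in Xbp1dIEC. In B-1 cells it was -0.18 and -0.11. Malat1, a nuclear RNA, stood at 9441 CPM in WT and 11567 in Xbp1dIEC large macrophages and at 18863 and 18103 CPM in B-1 cells. Ribosomal protein genes took 25.7% and 28.1% of UMIs in large macrophages. The part of these measures in the result was not tested.

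**Figure D2:**
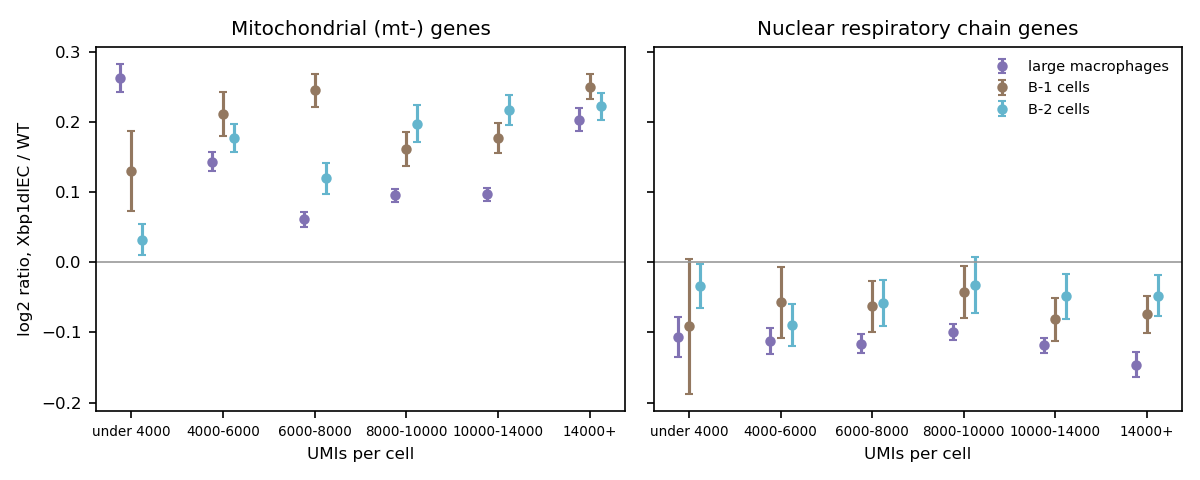
Log2 ratio of Xbp1dIEC over WT of the pooled UMI share (y axis) for mt- genes (left) and nuclear respiratory chain genes (right), in cells binned by total UMIs (x axis). Points are large macrophages, B-1 and B-2 cells with 95% counting intervals; in large macrophages the mt- ratio ranges from 0.06 to 0.26 over the bins while the nuclear ratio stays between -0.15 and -0.10.

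Subsets of the gates gave the same signs. The 633 WT and 301 Xbp1dIEC large macrophages with 2 or more cell cycle UMIs had mt- shares of 2.87% and 3.31%, and the 2039 and 2337 with fewer had 3.23% and 3.71%. Their log2 ratios were 0.21 and 0.20. Nuclear shares were higher in the first subset, at 2.76% and 2.51% against 2.53% and 2.34%, with ratios of -0.14 and -0.12. The 144 and 253 Folr2/Retnla cells under the macrophage gate had mt- shares of 2.15% and 2.79%, a ratio of 0.37, and nuclear shares of 2.81% and 2.73%, a ratio of -0.04. These cells also differed in depth, with a median of 7076 UMIs in WT and 4882 in Xbp1dIEC. With Retnla left out of the gate, the mt- ratio of the Folr2/Retnla cells was 0.45. In B-2 cells with Fcer2a, the mt- shares were 3.55% and 3.90%, a ratio of 0.13. The B-2 subset and the Folr2/Retnla subset were chosen after the values were seen.

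Gene by gene, a member counted as measured with 30 or more UMIs over both libraries and 10 CPM in the higher one. In large macrophages 12 of the 13 mt- genes were measured, and all 12 had log2 ratios above 0, with a median of 0.26 and a range of 0.15 to 0.40. Among all 6462 measured genes 36.1% were above 0 and the median was -0.07. The counting interval lay above 0 for all 12, and for 14.2% of all genes. No mt- gene reached a log2 ratio of 0.5, which 0.294% of all genes did. Counts were deep: mt-Co1, the catalytic subunit of complex IV, stood at 4556 CPM in WT and 5700 in Xbp1dIEC, a ratio of 0.32 (0.31 to 0.33). Of complex I, mt-Nd5 stood at 190 and 250 CPM, a ratio of 0.40 (0.34 to 0.46), and mt-Nd1 at 3068 and 3441 CPM, a ratio of 0.17 (0.15 to 0.18). For mt-Cytb, the only mitochondrial gene of complex III, the values were 2695 and 2996 CPM, a ratio of 0.15 (0.14 to 0.17). In Folr2/Retnla, B-1 and B-2 cells all 12 measured mt- genes were also above 0, where 39.3%, 50.5% and 39.1% of all genes were. The medians there were 0.23, 0.20 and 0.17. The interval lay above 0 for 11 of the 12 in each, against 7.21%, 12% and 7.62% of all genes.

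T cells and Cd209a cells did not share this pattern gene by gene. In T cells 7 of 12 mt- genes were above 0, against 50.6% of all genes, with a median of 0.01, and the interval lay above 0 for 2, against 3.56%. In Cd209a cells 7 of 11 were, against 43% of all genes, with a median of 0.06, and the interval lay above 0 for 1, against 4.74%. Over the 6 populations other than NK cells, mt-Nd1, mt-Co1 and mt-Co3 were above 0 in each, as were 4.25% of the genes measured in all 6. The mt-Nd3 gene of complex I stood at 341 CPM in WT and 280 in Xbp1dIEC T cells, a ratio of -0.28 (-0.52 to -0.05). The same gene stood at 324 and 388 CPM in large macrophages.

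Within the mitochondrial transcripts the same 3 genes led in all populations. The mt-Atp6 gene took 20.2% to 24.4% of mt- UMIs over the 7 populations and 2 libraries, mt-Co3 18.4% to 21.03% and mt-Co1 14.2% to 18.7%. The light-strand gene mt-Nd6 took at most 0.0213% and was not measured in any population. The part of mt-Nd1 ran from 7.44% in B-1 cells to 11.1% in Cd209a cells, both of Xbp1dIEC, and that of mt-Cytb from 6.90% to 9.34%. Large macrophages had a larger part of mt-Nd1 than B-1 cells, 9.84% against 7.80% in WT and 9.42% against 7.44% in Xbp1dIEC. The part of mt-Co1 was higher in Xbp1dIEC in all 7 populations. It was 14.6% in WT and 15.6% in Xbp1dIEC in large macrophages, 15.6% and 16.7% in B-1 cells, 15.3% and 16.1% in T cells, and 17.3% and 18.7% in Cd209a cells. The counting intervals of the libraries were apart in 4 of the 7. The part of mt-Co2 was lower in Xbp1dIEC in all 7, with intervals apart in 2. Each part depends on the others, since they sum to the whole.

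The nuclear members were lower on most rows in large macrophages, by small amounts. Of the 96, 84 were measured, and 77 of these had log2 ratios below 0, where 63.9% of all measured genes did. The median was -0.20, against -0.07 for all genes, and the range was -0.47 to 0.23. Centred on the median of all genes, 71 of 84 were below 0. The counting interval lay below 0 for 71 of the 84, and for 37% of all genes. None passed a log2 ratio of 0.5 in either direction, where 3.06% of all genes were at -0.5 or less. The shift was thus spread over many members, none of them large.

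**Figure D3:**
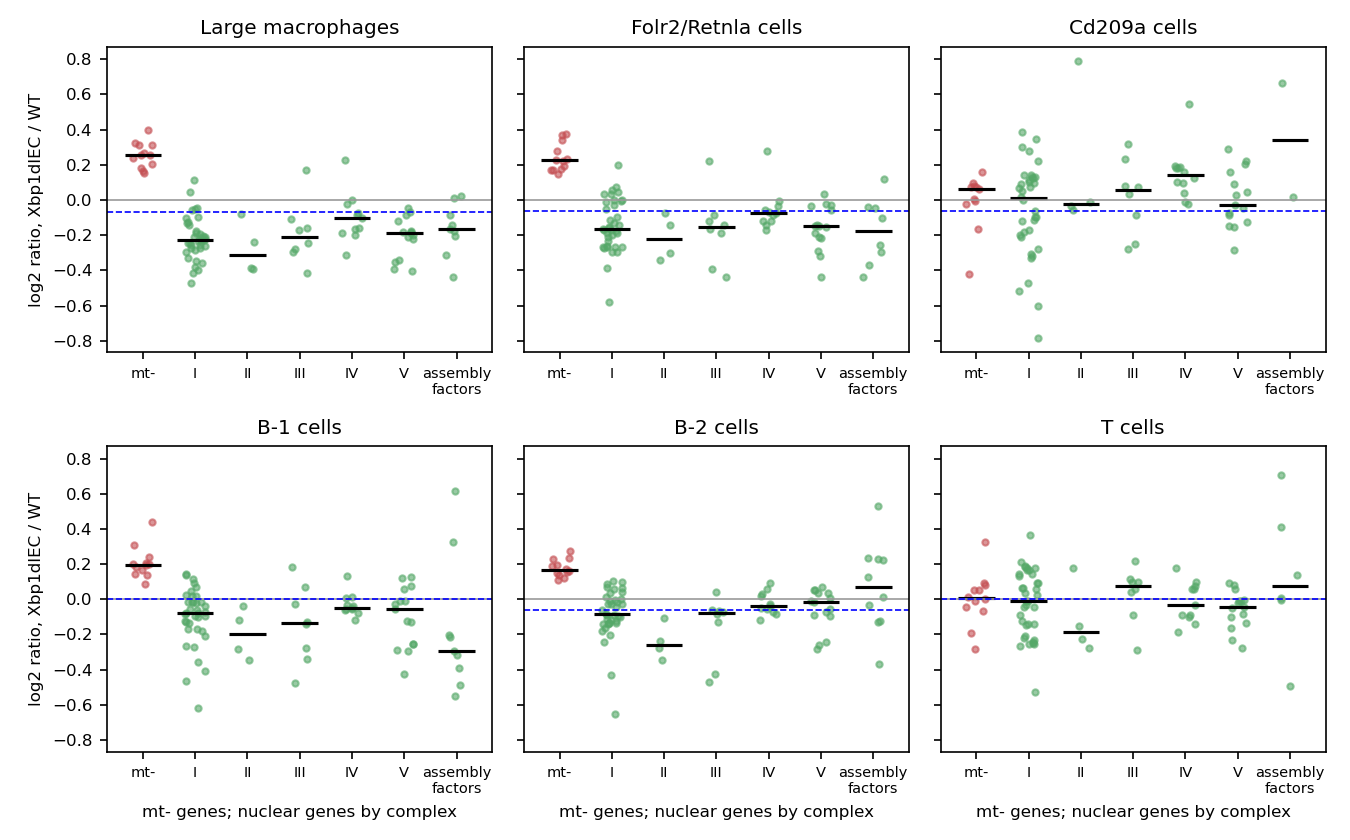
Log2 ratio of Xbp1dIEC over WT for each measured mt- gene (red) and nuclear member (green) by complex, in 6 cell populations. Black lines are list medians and the dashed blue line the median of all measured genes; in large macrophages the mt- median is 0.26 and the nuclear medians lie between -0.31 and -0.11.

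Complex I receives electrons from NADH. In large macrophages 35 of the 37 measured nuclear genes grouped under it by symbol, Ndufa4 among them, were below 0. Their median was -0.23, and 63.9% of all measured genes there were below 0. Ndufa9, an accessory subunit, stood at 41.8 CPM in WT and 29.8 in Xbp1dIEC, the lowest ratio of any measured member there, -0.47 (-0.63 to -0.34). Ndufs3, a core subunit, stood at 96.0 and 71.9 CPM, a ratio of -0.41 (-0.51 to -0.32). The exceptions were Ndufa6, at 287 and 310 CPM, a ratio of 0.11 (0.06 to 0.16), and Ndufa1, at 395 and 409 CPM, a ratio of 0.05 (0.01 to 0.09).

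Complex II links the chain to the citric acid cycle. All 4 subunits were below 0 in large macrophages, against 63.9% of all measured genes, with a median of -0.31. The iron-sulfur subunit Sdhb stood at 157 CPM in WT and 120 in Xbp1dIEC, a ratio of -0.39 (-0.46 to -0.32). The membrane anchor Sdhd stood at 99.2 and 75.4 CPM, a ratio of -0.39 (-0.49 to -0.30), and the other anchor Sdhc at 94.5 and 79.8 CPM, a ratio of -0.24. The flavoprotein Sdha was close to even, at 74.0 and 70.0 CPM, with a ratio of -0.08 (-0.18 to 0.02) whose interval covers 0. All 4 were also below 0 in Folr2/Retnla cells, B-1 cells and B-2 cells, with medians of -0.22, -0.20 and -0.26. Of all genes in these populations, 60.7%, 49.5% and 60.9% were below 0, with medians of -0.07, 0.0035 and -0.06. In B-2 cells Sdha stood at 81.1 and 63.7 CPM, a ratio of -0.34 (-0.56 to -0.14). In Cd209a cells it stood at 65.2 and 114 CPM, a ratio of 0.79 (0.20 to 1.43), from far fewer cells. The median of the 4 subunits in Cd209a cells was -0.02, with 3 below 0, against 57% of all genes.

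Complex III passes electrons to cytochrome c. In large macrophages 7 of its 8 nuclear subunits were below 0, against 63.9% of all measured genes, with a median of -0.21. The core proteins Uqcrc1 and Uqcrc2 stood at 104 and 77.8 CPM in WT and at 77.7 and 63.2 CPM in Xbp1dIEC, ratios of -0.41 (-0.51 to -0.33) and -0.30 (-0.40 to -0.20). They were low in B cells too: in B-2 cells Uqcrc1 stood at 100 and 74.5 CPM and Uqcrc2 at 97.9 and 70.3 CPM, ratios of -0.42 and -0.47. In T cells the ratios were 0.04 and 0.22 with intervals that cover 0. The hinge protein Uqcrh was the exception in macrophages, at 694 and 783 CPM, a ratio of 0.17 (0.14 to 0.20), and at 637 and 743 CPM in Folr2/Retnla cells, a ratio of 0.22. In B-1 cells it went the other way, at 770 and 700 CPM, a ratio of -0.14 (-0.21 to -0.07). In Cd209a cells it stood at 667 and 785 CPM, a ratio of 0.24 (0.03 to 0.44). Uqcrh has 2 pseudogenes named after it in GENCODE M21, and how reads of near-identical copies were counted is not stated.

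Complex IV reduces oxygen. Grouped by symbol, its 11 measured genes, with Cox7a2l among them and Ndufa4 left out, shifted least in large macrophages. Their median was -0.11, and 9 were below 0, against 63.9% of all measured genes. Centred on the median of all genes, this list's median was -0.03. Cox4i1, the nuclear subunit with the highest level there, stood at 1266 and 1247 CPM, a ratio of -0.02 with an interval that covers 0, and Cox8a at 850 and 851 CPM. Cox5a stood apart, at 452 and 363 CPM, a ratio of -0.32 (-0.36 to -0.27), and Cox5b stood at 499 and 438 CPM. Cox7a2l, known as an assembly factor of respiratory supercomplexes, had the highest ratio of the nuclear members measured in large macrophages, 0.23 (0.20 to 0.26), at 655 CPM in WT and 768 in Xbp1dIEC. It stood at 541 and 657 CPM in Folr2/Retnla cells, a ratio of 0.28 (0.21 to 0.35), and at 685 and 650 CPM in B-1 cells and 929 and 875 CPM in T cells. Ndufa4, named as a complex I gene and counted there, is now known as a complex IV subunit. It stood at 722 and 624 CPM in large macrophages, a ratio of -0.21.

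All 15 ATP synthase genes of complex V were below 0 in large macrophages, against 63.9% of all measured genes, with a median of -0.19. The catalytic subunit Atp5b stood at 280 CPM in WT and 211 in Xbp1dIEC, a ratio of -0.40 (-0.46 to -0.35). It was also lower in Folr2/Retnla cells, at 336 and 249 CPM, a ratio of -0.44, in B-1 cells, at 306 and 228 CPM, a ratio of -0.42, and in B-2 cells, at 348 and 286 CPM, a ratio of -0.28. Its T cell values, 403 and 380 CPM, gave a ratio of -0.08 (-0.29 to 0.12). Small subunits with high counts differed less: Atp5l stood at 897 and 870 CPM and Atp5e at 838 and 791 CPM in large macrophages, ratios of -0.04 and -0.08. Among the 9 measured assembly factors, 7 were below 0, with a median of -0.17, and the interval lay below 0 for 4. Of all measured genes there, 63.9% were below 0 and 37% had intervals below 0. Sdhaf3 was lowest at 11.2 and 8.01 CPM, a ratio of -0.44 (-0.77 to -0.20). Ndufaf5, under the level counted as measured, stood at 6.53 and 4.43 CPM.

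In the other populations the median of the nuclear members was nearer to that of all genes. Centred on all genes, it was -0.08 in Folr2/Retnla cells and in B-1 cells, against -0.13 in large macrophages. In Folr2/Retnla cells 72 of 83 were below 0, against 60.7% of all genes, with a median of -0.14 against -0.07, and the interval lay below 0 for 50, against 20.1%. None was at 0.5 or more, as 1.8% of all genes were, and 1 member, Ndufa9, was at -0.5 or less, as were 5.24% of all genes. It stood at 47.0 and 31.2 CPM there, a ratio of -0.58 (-0.89 to -0.30). In B-1 cells 64 of 84 were below 0, against 49.5%, with a median of -0.08 against 0.0035, and the interval lay below 0 for 20, against 12.7%. In B-2 cells 58 of 85 were, against 60.9%, with a median of -0.06, equal to that of all genes to 2 decimals, and the interval lay below 0 for 17, against 15.3%. In T cells 44 of 81 were, against 49.4%, with a median of -0.01, and the interval lay below 0 for 1, against 3.87%. In Cd209a cells 34 of 77 were below 0, against 57%, with a median of 0.04, and the interval lay below 0 for 2, against 7.14%. In NK cells 29 of 51 were below 0, against 48.7%, with a median of -0.07. There 8 were at -0.5 or less and 3 at 0.5 or more, against 10.4% and 11.5%, with intervals below 0 for 2 and above 0 for none, where 2.68% of all genes lay on each side. Over the 6 populations other than NK cells, 12 of the 76 nuclear members measured in all were below 0 in each, near the 13.6% of all genes. They were Cox5b, Sdhc, Sdhd, Atp5a1, Atp5b, Atp5c1, Atp5d, Atp5f1, Atp5o, Ndufa11, Ndufb8 and Ndufv1.

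In the B cells the widest ratios belonged to low-count members. In B-1 cells 2 of 84 measured members were at -0.5 or less and 1 at 0.5 or more, against 5.33% and 6.24% of all genes. In B-2 cells 1 of 85 was past each mark, against 3.43% and 2.38%. Ndufv1, the NADH-binding core subunit of complex I, stood at 47.1 CPM in WT and 30.3 in Xbp1dIEC B-1 cells, a ratio of -0.62 (-0.95 to -0.31), where 5.33% of all genes were at -0.5 or less. Ndufs1 and the assembly factor Sdhaf1 were also among the lowest, at 18.0 and 12.7 CPM and at 38.6 and 27.3 CPM. Ndufaf4, a complex I assembly factor, went the other way in B-1 cells, at 29.7 and 46.1 CPM, a ratio of 0.62 (0.29 to 0.99), where 6.24% of all genes were at 0.5 or more. It stood at 38.0 and 44.9 CPM in B-2 cells and at 22.8 and 20.05 CPM in large macrophages. In B-2 cells Ndufa9 was lowest, at 43.8 and 27.5 CPM, a ratio of -0.65 (-0.98 to -0.37), where 3.43% of all genes were at -0.5 or less. Ndufaf2, another complex I assembly factor, was highest there, at 15.0 and 22.1 CPM, a ratio of 0.53 (0.14 to 0.98), where 2.38% were at 0.5 or more. In T cells, among members with 100 or more UMIs, the ends were Ndufc1, at 78.5 and 101 CPM, and Uqcr10, at 207 and 169 CPM, both with intervals that cover 0. One measured member there was at 0.5 or more (Sdhaf1, at 11.1 and 18.7 CPM) and another at -0.5 or less (Ndufs1, at 17.9 and 12.1 CPM), against 7.42% and 8.67% of all genes. In Cd209a cells Ndufa12 stood at 118 and 67.8 CPM, a ratio of -0.79 (-1.40 to -0.21), and Ndufv2 at 250 and 164 CPM, a ratio of -0.60 (-0.99 to -0.22), where 12.6% of all genes were at -0.5 or less. Sdha, Cox6b2 and Ndufaf3 were at 0.5 or more, as were 7.25%.

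The levels of nuclear members across populations were higher in large macrophages than in B and T cells for most genes. NK cells were not compared gene by gene. In WT, 69 of 83 members measured in both were higher in large macrophages than in B-1 cells, where 54.0% of all genes were, with a median log2 difference of 0.52 against 0.06. In Xbp1dIEC 72 of 83 were, against 46.3%, with a median of 0.32. Against T cells, 62 of 81 were higher in WT and 58 of 81 in Xbp1dIEC, where 45.4% and 40.1% of all genes were. Among nuclear members with at least 50 CPM in their highest population, after Cox6b2, the ranges were widest for Uqcr11 and Ndufa1. Uqcr11 of complex III stood at 552 CPM in WT large macrophages, 540 in Folr2/Retnla cells, 243 in Cd209a cells, 207 in B-1 cells, 175 in B-2 cells and 163 in T cells, and at 512, 509, 303, 203, 168 and 153 CPM in Xbp1dIEC. Ndufa1 of complex I stood at 395 CPM in WT large macrophages and 140 in B-2 cells, and at 409 and 144 in Xbp1dIEC. Above the same level, Ndufc1, Uqcrb, Ndufb8, Uqcrq, Cox6a1, Ndufa4 and Cox5a followed, each highest in large macrophages or Folr2/Retnla cells by the mean of the libraries. Some members above and below that level went the other way, and those named here were chosen after their values were seen. Above it, Atp5b was lowest in large macrophages and highest in T cells in both libraries. By the mean of the libraries it stood at 246 and 392 CPM. Atp5sl, counted here with the assembly factors, stood at 47.6 and 48.0 CPM in B-2 cells and at 10.4 and 10.5 CPM in large macrophages. Sdhaf2, an assembly factor of complex II, stood at 54.2 and 43.4 CPM in B-1 cells and at 22.0 and 19.0 CPM in large macrophages.

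Cox6b2, known as a testis isoform of a complex IV subunit, had the widest range of all members, for which it was chosen, and counted as measured in Cd209a cells only. It stood at 54.4 CPM in WT (36.7 to 77.6, exact Poisson interval from 30 UMIs) and 79.7 CPM in Xbp1dIEC (58.6 to 106, from 47 UMIs) Cd209a cells. Its highest value in the other 5 large populations was 5.51 CPM, from 5 UMIs in Xbp1dIEC T cells, and in large macrophages it stood at 1.34 and 1.59 CPM. Cox6b1, the common isoform, stood at 540 and 614 CPM in Cd209a cells and at 710 and 635 in large macrophages. Cd209a cells also had the highest class II levels, with Cd74 at 42050 and 36577 CPM, and Gata6 was at 1.81 and 0 CPM. The isoforms known from muscle or other tissues were barely present. Over all barcodes of both libraries Cox7a1 had 364 UMIs, Cox6a2 36, Cox4i2 8 and Cox8b 2, and Cox7b2, Cox8c and Ndufa4l2 were at 0. With Ndufaf5, Ndufaf6, Atp5s and mt-Nd6, these 11 members were measured in no population.

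**Figure D4:**
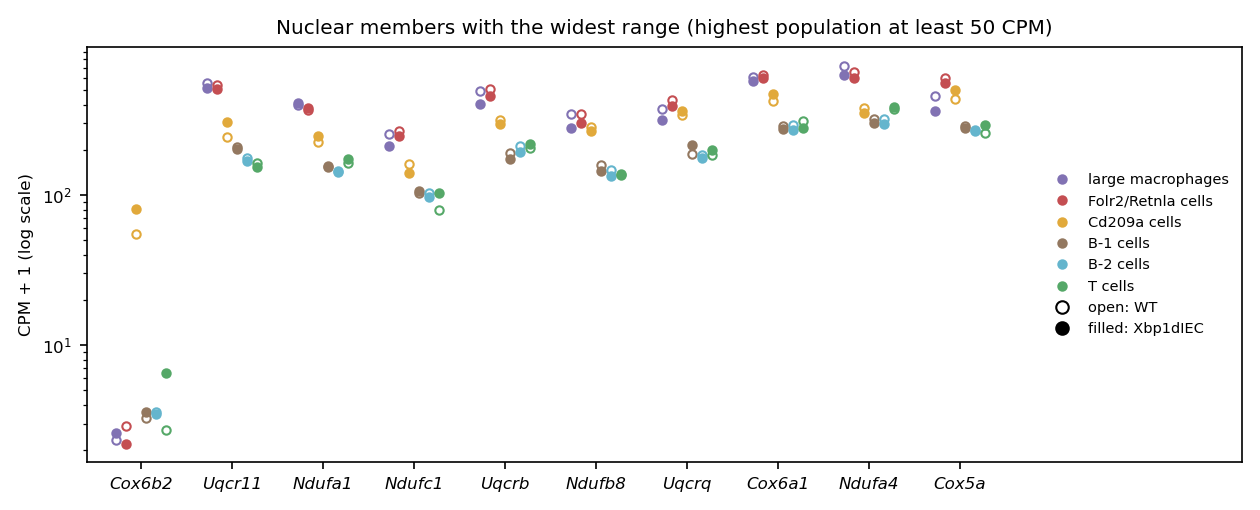
Level (CPM plus 1, log scale) of the 10 nuclear members with the widest range over 6 cell populations among those with at least 50 CPM in their highest population, in WT (open) and Xbp1dIEC (filled). Cox6b2 is at 54.4 and 79.7 CPM in Cd209a cells and at most 5.51 CPM elsewhere; the other 9 members shown are higher in both macrophage gates than in B and T cells in both libraries.

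Other genes of mitochondrial metabolism, on lists taken from textbook membership, lay on the same side in large macrophages as the nuclear members; of all measured genes there, 63.9% were below 0, with a median of -0.07. Of 12 measured electron carriers and uncoupling genes, 11 were below 0, with a median of -0.23. Cycs, the mobile carrier cytochrome c, stood at 151 CPM in WT and 108 in Xbp1dIEC, a ratio of -0.49 (-0.57 to -0.42). Cyc1, the cytochrome c1 of complex III whose symbol falls outside the rule, stood at 93.8 and 66.4 CPM, a ratio of -0.49 (-0.60 to -0.40). Coq7, an enzyme of ubiquinone synthesis, stood at 28.7 and 19.6 CPM, a ratio of -0.53. Ucp2, a carrier of the inner membrane, was the exception, at 595 and 624 CPM, a ratio of 0.07 (0.03 to 0.10). Of 17 citric acid cycle genes 16 were below 0, with a median of -0.21, and malate dehydrogenase Mdh2 stood at 172 and 123 CPM, a ratio of -0.48. Of 71 measured genes of the mitochondrial ribosome 68 were below 0, with a median of -0.25. None of these lists held a gene at 0.5 or more, and 2 genes on them were at -0.5 or less, against 0.294% and 3.06% of all genes.

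Few genes that express or regulate the chain were measured in large macrophages, where 63.9% of all measured genes were below 0. Of 6 measured genes of mitochondrial DNA expression 5 were below 0, with a median of -0.15; Tfam, which packages mitochondrial DNA, stood at 19.5 and 17.6 CPM, a ratio of -0.14 (-0.35 to 0.05). The 6 measured regulators had a median of -0.03, near the -0.07 of all genes, with Nrf1 at 15.0 and 14.5 CPM and Yy1 at 41.6 and 41.0 CPM. Assembly factors outside the rule had a median of -0.08, with 12 of 17 below 0. In B-1 cells the mitochondrial ribosome was near even, with a median of 0.02 and 33 of 73 below 0, while the citric acid cycle had a median of -0.14 with 11 of 17 below 0; of all genes there, 49.5% were below 0, with a median of 0.0035. In T cells these medians were -0.03 and -0.06, and in Cd209a cells -0.09 and 0.02.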

How the data were processed

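Peritoneal cells of 1 WT and 1 Xbp1dIEC pool were profiled with 10x Chromium 3′ chemistry, per the labels. The deposited matrices hold raw UMI counts as whole numbers. Per the submitters' processing notes, mm10 was the build and the tools were Seurat 2.3.0 and Cell Ranger 2.2.0. Which annotation they used, and how barcodes were kept, is not given in the sources used here. Members and lists were chosen with earlier results of these data known.

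Barcodes needed 500 UMIs and 200 genes, which all passed, and no mitochondrial filter was set. Scrublet in scanpy 1.11.5 (expected rate 5%) called 144 WT and 109 Xbp1dIEC doublets, which were removed. Gates needed 3 UMIs of macrophage markers, 5 of Folr2, Retnla and Cbr2, 3 of Cd209a, Mgl2 and Ear2, 4 of B, 3 of T and 2 of NK markers; B-1 and B-2 cells needed 2 of their own list and 2 more than of the other. Cells past gates of more than 1 lineage (658 and 507), undecided B cells (412 and 427), ties of myeloid lists (14 and 9) and cells past none (157 and 191) were left out. UMIs were summed per gate. Shares had exact Clopper-Pearson intervals, CPM exact Poisson intervals, and log2 ratios exact conditional binomial intervals; single genes had 1 CPM added. The named nuclear genes were the 4 highest and lowest ratios per population with 100 or more UMIs, the 10 highest levels in large macrophages, the 10 widest ranges with 50 CPM or more in the highest population, isoforms, complex II and members at 0; others were chosen after their values were seen. The calculation was tested on simulated data. Coordinates came from GENCODE M21, in which all 109 members were matched by ID. Python 3.11.15, scipy 1.17.1 and pandas 2.3.3 were used. A split of complex I subunits into groups is not reported here.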

Additional observations from a re-analysis of the deposited data

Results flagged for a closer look

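The nuclear respiratory chain share had a log2 ratio above 0 in Cd209a cells and below 0 in 5 other populations, each with a counting interval clear of 0. The difference of the ratios was 0.19 between Cd209a cells and large macrophages, 0.15 against Folr2/Retnla cells, 0.12 against B-1 cells, 0.11 against B-2 cells and 0.15 against NK cells. With 1 library per genotype this difference was not tested. The Cd209a gate held 76 WT and 84 Xbp1dIEC cells, and its nuclear ratio stayed above 0 in all 10 alternatives tried, from 0.02 to 0.12. These alternatives drew largely on the same cells. Of the Xbp1dIEC Cd209a cells, 54.8% lay above the WT median of the nuclear share.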

How the results depend on the processing

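Of the alternative values for the share ratios, 81 stayed within the counting interval of the value reported, 45 moved outside it and 3 whose interval had excluded 0 changed sign. These were small: the mt- ratio of Cd209a cells was -0.014 with each cell given the same weight, that of NK cells -0.019 with gates 2 UMIs higher, and that of T cells -0.025 in cells with 5000 to 10000 UMIs. The nuclear ratio of T cells, whose interval covers 0, kept its sign in 7 of 9 alternatives. In that range of depth the mt- ratio was 0.093 in large macrophages, 0.13 in Folr2/Retnla, 0.10 in Cd209a and 0.17 in B-2 cells, and the nuclear ratio -0.11, -0.066 and -0.073 in large macrophages, Folr2/Retnla and B-2 cells; NK cells had 1 cell a library there, so none was computed. Only barcodes under 5% mt- gave mt- ratios of 0.16 in large macrophages, 0.17 in Folr2/Retnla, 0.14 in B-1 and 0.10 in B-2 cells, and a nuclear ratio of -0.042 in B-1 cells. Ribosomal and immunoglobulin UMIs left out of the total gave mt- ratios of 0.27 in large macrophages, 0.25 in Folr2/Retnla, 0.11 in Cd209a, 0.23 in B-1 and 0.23 in B-2 cells, and nuclear ratios of -0.092, -0.057, 0.12, -0.041 and -0.0031. Equal weight per cell gave mt- ratios of 0.24 in large macrophages, 0.24 in Folr2/Retnla and 0.13 in B-2 cells, and nuclear ratios of -0.12 in large macrophages and -0.065 in Folr2/Retnla cells. Gates on counts thinned to 2000 UMIs gave mt- ratios of 0.24 in large macrophages, 0.22 in Cd209a, 0.19 in B-1 and 0.13 in B-2 cells. The nuclear ratios with these gates were -0.13 in large macrophages and -0.080 in Folr2/Retnla cells. Higher gates gave mt- ratios of 0.22 in large macrophages and 0.17 in B-2 cells. Without Retnla in the gate the mt- ratio was 0.22 in large macrophages, 0.45 in Folr2/Retnla and 0.11 in Cd209a cells, and the nuclear ratio of Folr2/Retnla cells was -0.030. Without cycling cells the large macrophage ratios were 0.20 and -0.12, and without mt- UMIs in the total the nuclear one was -0.13. As alternatives chosen after seeing the data, Folr2/Retnla cells under the macrophage gate gave 0.37 and -0.045, and B-2 cells with Fcer2a a mt- ratio of 0.13. The cause of these moves was not tested. The medians over members kept their sign in all 4 alternatives each. No paired analysis was possible because each genotype has 1 library, and for the same reason no replicate could be left out. The counting error of T, Cd209a and NK cells limits what single members can show there.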

Other observations

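Cells left out of the comparisons had values on the same sides. The 412 WT and 427 Xbp1dIEC undecided B cells had mt- shares of 3.81% and 4.56%, a log2 ratio of 0.26, and nuclear shares of 1.82% and 1.70%, a ratio of -0.10. The 658 and 507 cells past gates of more than 1 lineage had mt- shares of 3.55% and 4.24% and nuclear shares of 2.09% and 1.99%. The 157 and 191 cells past no gate had mt- shares of 2.73% and 3.51% and nuclear shares of 2.43% and 2.23%. None of these was tested.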
